A study of Rattus norvegicus with 20 samples.

Results

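The genes described here are 10 effectors of cytotoxic lymphocytes: the granzymes Gzma, Gzmb, Gzmk and Gzmm, the pore former Prf1, the granule membrane protein Nkg7, the activating receptor Ncr1, the cytokine Ifng, the transcription factor Eomes and the death ligand Faslg. They were chosen by name, as the probes whose gene name in the scanner files, or whose current RefSeq symbol, was a member. Of the 10 genes 9 had a probe, with 10 probes in all, and the level of Eomes was not analysed here. Of the 9 genes 8 passed the filter on dim probes and were tested, among 15260 genes tested in all. The exception was Ifng, whose probe was well above background on 0 of 20 arrays.

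Cytotoxic lymphocytes, mainly natural killer (NK) cells and CD8+ T cells, store perforin and granzymes in secretory granules. On contact with a target cell the granules are released, perforin opens a pore in the target membrane, and the granzymes, a family of serine proteases, enter and start cell death. Fas ligand kills by a separate route, by binding the death receptor Fas on the target. In whole blood these transcripts come from a minority of the leukocytes, so their level follows both the share of such cells and the RNA each of them holds, and fewer cells of a type and less RNA per cell cannot be told apart in these samples.

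RNA from whole blood of 20 Wistar rats had been hybridised to 1-colour (Cy3) Agilent arrays, with 1 array per rat and 4 rats in each of 5 groups. The groups were a sham operation, surgically induced reflux esophagitis without treatment, and the same esophagitis with the herbal preparation STW5 at 0.5 ml/kg or at 2 ml/kg, or with omeprazole, a proton pump inhibitor, at 30 mg/kg. Treatment began 7 days ahead of surgery and went on for 10 days afterwards. The esophagitis follows surgery, and the age of the rats is not given in the sources used here. Replicates are separate rats, per the series' design text.

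The arrays lay on 3 slides: sham and untreated arrays on the first, both STW5 doses on the second and omeprazole on the third. For each comparison of a treated with the untreated group, slide and treatment cannot be told apart, while untreated against sham and 2 against 0.5 ml/kg lie within a slide. The titles of the arrays and the design text number the STW5 groups in opposite order, and the authors' deposited table of values follows the opposite dose from the titles for its 8 STW5 columns. The titles were followed, and any statement on a single STW5 dose depends on them. The array labelled untreated 1 correlated best with sham array 3 (r = 0.992 over 15260 genes), the highest r of any pair of arrays. Its mean r was 0.984 with the sham arrays and 0.92 with the other untreated arrays. The reason was not tested, and the array was kept as labelled. Untreated array 2 stood apart, with general T cell genes on average 2.54 below and neutrophil genes 1.59 above their means over the 20 arrays on the log2 scale. For several comparisons, values without single arrays are given as well. Blood cell markers were present, with Cd3e (T cells), Cd79b (B cells), S100a8 (neutrophils), Alas2 (red cell precursors) and Pf4 (platelets) each well above background on 20 of 20 arrays.

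The probes are 60 bases long, and the ones that follow are shown because every level below is read from such a probe and because related granzymes could share it. Each has a reading frame without a stop codon over its full length. Coordinates are those the scanner files give, on rn4, and positions in the transcript are those of its first base. The Gzma probe lies at chr2:44490165-44490224 on the minus strand, from position 563 of the mRNA. The Gzmk probe lies on the same chromosome and strand at chr2:44589378-44589437, from position 739. The Gzmm probe lies at chr7:11526548-11526607 on the minus strand, from position 711, and the Prf1 probe at chr20:28663319-28663378 on the plus strand, from position 1384. The Ncr1 probe lies at chr1:68969603-68969662 on the minus strand, from position 407, and the undetected Ifng probe at chr7:57625663-57625722 on the plus strand, from position 387. By these coordinates each probe spans 60 unbroken bases of the genome, with no intron, and so lies within an exon of its transcript.
Gzma: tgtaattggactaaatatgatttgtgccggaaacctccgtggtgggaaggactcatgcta
Gzmk: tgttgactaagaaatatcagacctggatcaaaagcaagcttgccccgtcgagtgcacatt
Gzmm: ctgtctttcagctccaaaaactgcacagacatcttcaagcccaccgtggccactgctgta
Prf1: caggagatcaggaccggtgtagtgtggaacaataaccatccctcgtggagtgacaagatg
Ncr1: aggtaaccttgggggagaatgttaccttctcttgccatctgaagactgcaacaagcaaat
Ifng: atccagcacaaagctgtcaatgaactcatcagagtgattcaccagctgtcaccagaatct

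Only Gzmb had a probe that shared more than 15 bases in a row with another probe of the array. The Gzmb probe used here, at chr15:35196479-35196538 on the minus strand, matched the probe of a transcript annotated as granzyme-like protein 1, at chr15:35062560-35062619 on the minus strand, at 55 of 59 aligned bases (93.2%). The longest run of identical bases was 28. Capitals mark the 4 bases that differ in the aligned stretch.
Gzmb: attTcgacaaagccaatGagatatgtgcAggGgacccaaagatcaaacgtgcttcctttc
Granzyme-like protein 1: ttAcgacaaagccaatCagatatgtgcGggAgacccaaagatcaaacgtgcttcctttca
The relative was well above background on 12 of 20 arrays and its level correlated with that of the Gzmb probe at r = 0.91 over the 20 arrays. Its part in the Gzmb signal was not tested. The other Gzmb probe starts at position 1010 of the same mRNA, where it shared at most 14 bases in a row with any other probe, and followed the first at r = 0.98. The probes of the other 8 genes shared runs of 12 to 15 bases at most with any other probe.

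Levels are given as log2 of the processed signal minus log2 of the 75th percentile of the array, so a level of 0 is the signal of that percentile and a step of 1 is a doubling. Levels of different genes come from different probes and are not compared with each other. Gzma, Gzmk, Gzmm, Prf1 and Nkg7 were well above background on 20 of 20 arrays, Gzmb on 18, Ncr1 on 16 and Faslg on 12.

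Gzma, a tryptase and the granzyme with the widest spread here, ran over a 39.1-fold range between arrays. Its level on sham arrays 1 to 4 was 3.37, -0.17, -0.90 and -1.49. On the untreated arrays it was -0.96, -0.27, -0.65 and 0.44. On the arrays of STW5 0.5 ml/kg it was 0.55, 3.80, 0.01 and 0.53. These groups overlap, and a single array in each of sham and STW5 0.5 ml/kg lies more than 3 above the others. At 2 ml/kg Gzma was at 1.68, 0.43, 1.27 and 0.16, and with omeprazole at -0.76, -0.99, 1.00 and -1.19. The group means were 0.20 ± 2.18 in sham, -0.36 ± 0.60 untreated, 1.22 ± 1.74 and 0.88 ± 0.71 at the lower and higher STW5 dose, and -0.49 ± 1.00 with omeprazole (SD, n = 4 each).

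Gzmb, the protease that cleaves after aspartate and activates caspases, had the same outlying arrays. In sham it was at 1.17, -2.13, -1.63 and -3.48, the last not well above background. In untreated rats it was at -1.74, -2.43, -2.35 and -0.95. At STW5 0.5 ml/kg it was at -1.57, 1.02, -1.99 and -1.64. Sham array 1 and STW5 0.5 ml/kg array 2 were again the 2 highest of the 20 arrays. At 2 ml/kg it was at 0.16, -2.21, -0.61 and -1.75, and with omeprazole at -3.44 (not well above background), -3, -1.04 and -2.76. The omeprazole mean of -2.56 ± 1.05 was the lowest of the 5, beside -1.87 ± 0.68 untreated and -1.52 ± 1.96 in sham (SD, n = 4).

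Gzmk, a tryptase whose gene lies near that of Gzma, followed Gzma array by array. Its sham levels were 2.87, 0.29, -0.15 and -0.98, and its untreated levels -0.01, 0.54, 0.97 and 1.51. At STW5 0.5 ml/kg it was at 1.28, 2.78, 0.51 and 1.02. The arrays at 2 ml/kg lay close together, at 1.63, 1.36, 1.44 and 0.86. Their SD of 0.33 was the smallest of the 5 groups, and it was 1.66 in sham. With omeprazole Gzmk was at -0.14, 0.02, 1.27 and 0.08, where only array 3 stood clear of the others.

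Gzmm, a granzyme that cleaves after methionine and is known from NK cells, showed another low end. Its sham levels were 3.81, 2.41, 2.06 and 1.88. In the untreated group it was at 2.06, 0.18, 3.00 and 3.43. Untreated array 2 is the lowest of all 20, whereas Gzma, Gzmb and Gzmk had their lowest level on sham array 4. Gzmm was at 2.99, 3.90, 2.03 and 2.94 with STW5 0.5 ml/kg, and at 2.86, 3.00, 3.35 and 2.28 with 2 ml/kg. With omeprazole it was at 2.20, 2.28, 2.85 and 2.30.

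Prf1, the gene of perforin, shared that pattern. In sham it was at 3.76, 2.56, 2.07 and 1.90, and in untreated rats at 2.13, 0.38, 3.14 and 3.28. At STW5 0.5 ml/kg it was at 2.46, 4.08, 1.88 and 2.69. The low value of untreated array 2 sits well below the next untreated array, at 2.13. At 2 ml/kg Prf1 was at 2.99, 2.18, 3.21 and 2.72, and with omeprazole at 1.92, 1.91, 3.1 and 1.91, so that 3 omeprazole arrays were nearly equal and array 3 lay apart.

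Nkg7, which encodes a granule membrane protein needed for degranulation, was at 4.10, 1.87, 1.52 and 1.06 in sham and at 1.49, 0.90, 3.05 and 3.66 in untreated rats. With STW5 0.5 ml/kg it was at 2.60, 4.02, 2.02 and 2.38, and with 2 ml/kg at 2.87, 2.39, 3.03 and 2.20. With omeprazole it was at 1.71, 1.97, 2.60 and 1.99. Sham array 1 was the highest of the 20 and untreated array 2 the lowest.

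Ncr1, which encodes the NK receptor NKp46, was dim and varied less than the other genes. In sham it was at -1.70, -3.37, -2.83 and -3.94, with arrays 3 and 4 not well above background. In untreated rats it was at -2.72, -4.04, -3.23 and -2.70. At STW5 0.5 ml/kg it was at -2.22, -2.13, -2.50 and -3.06. At 2 ml/kg it was at -2.41, -2.51, -2.45 and -3.50, with arrays 1 and 4 not well above background. With omeprazole it was at -1.96, -2.50, -2.59 and -2.59, all well above background and all above the highest untreated array. Its SD over the 20 arrays was 0.62, near the median of 0.58 over all 15260 genes.

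Faslg, the gene of Fas ligand, was measured above background on 2 arrays of each group except STW5 0.5 ml/kg, where 4 of 4 were. It was at -1.03, -2.57, -3.23 and -3.40 in sham and at -2.95, -4.34, -2.93 and -2.96 in untreated rats. At 0.5 ml/kg it was at -2.87, -0.70, -3.38 and -2.54, and at 2 ml/kg at -2.13, -2.63, -2.31 and -2.91. With omeprazole it was at -3.26, -3.50, -2.51 and -3.53. The same 2 arrays, sham 1 and STW5 0.5 ml/kg 2, were the highest of the 20.

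**Figure D1:**
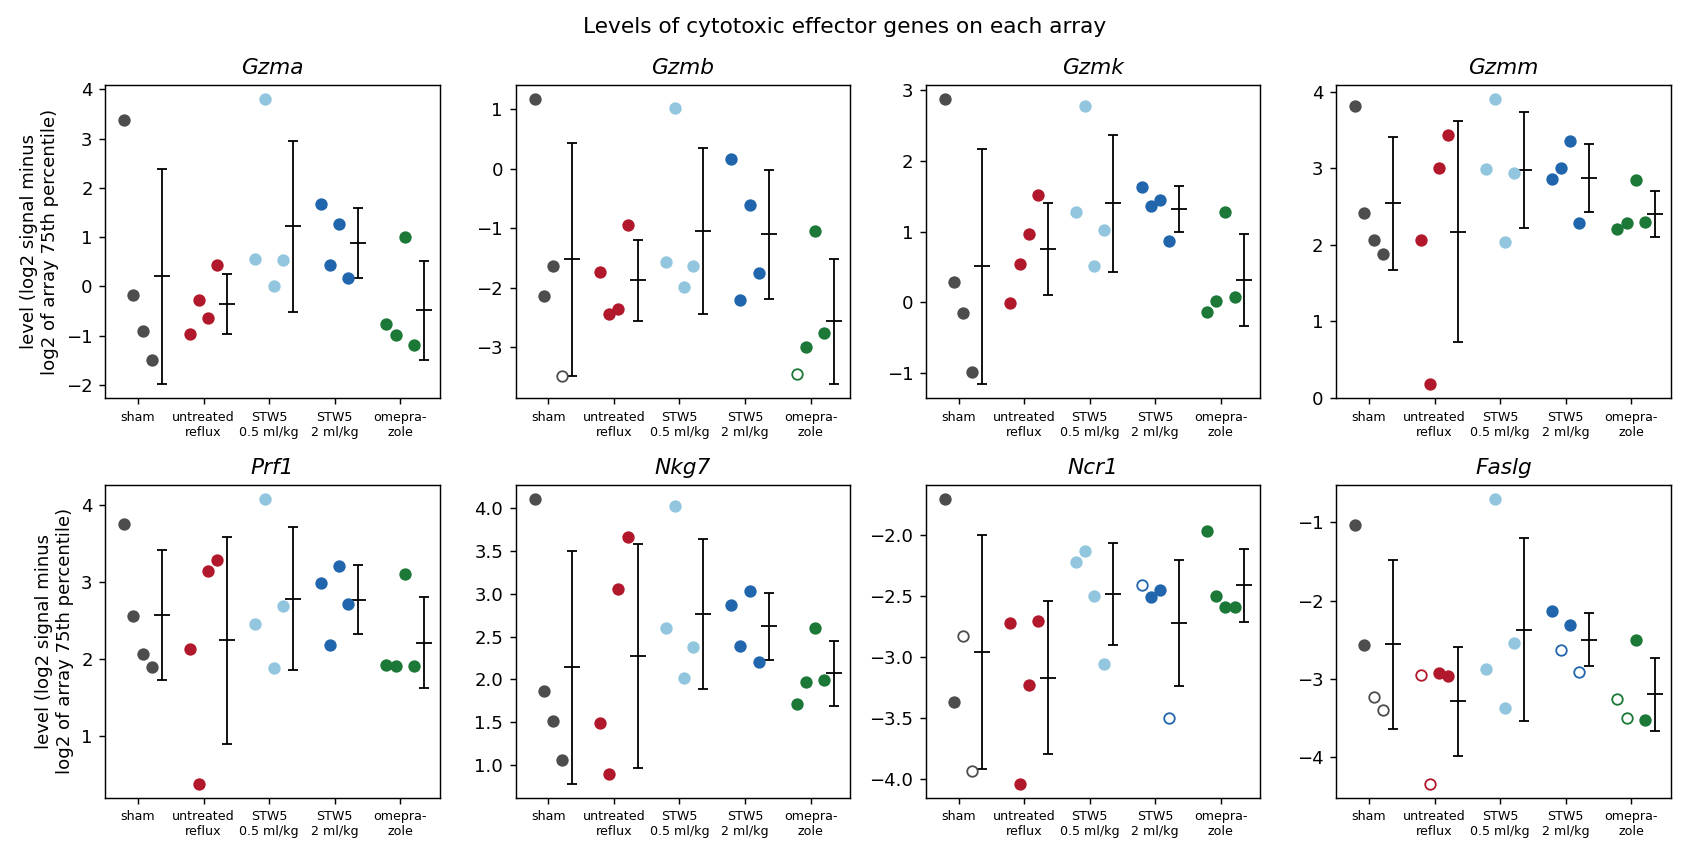
Level of each of the 8 tested genes (log2 scale, relative to the 75th percentile of its array) in the 5 groups. Each point is 1 array, in array order 1 to 4 from left to right within a group. Open points are not well above background. Bars are the group mean ± SD (n = 4). Sham array 1 and STW5 0.5 ml/kg array 2 stand at the top of most panels, untreated array 2 at the bottom of 5.

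Ifng, the gene of interferon gamma, was not well above background on any array, and its levels of -6.14 to -4.09 lay below the lowest signal well above background on each array. No change is given for it.

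Over the 8 tested genes, 7 had their highest group mean with STW5 0.5 ml/kg and the next with 2 ml/kg. Ncr1 was the exception, with the highest mean under omeprazole. The lowest mean was that of omeprazole for 5 genes and that of the untreated group for 3 (Gzmm, Ncr1 and Faslg). In this order of the means none of the 32 gaps between neighbouring groups exceeded the larger of the 2 groups' SDs. Such gaps are slices of the full spread of the means, so groups further apart in the order can differ by more. For Ncr1 the omeprazole and untreated means lay 0.76 apart, with SDs of 0.30 and 0.63. Of the sum of squares of the 8 genes over the 20 arrays, a median of 20.4% lay between groups, against a median of 33.3% over all genes. With 5 groups of 4 arrays some of it lies between groups even where they do not differ. The 20.4% is therefore not the size of a group effect. The spread between rats was large: Gzma varied more than 98.9% of all genes tested (SD 1.41) and Gzmb more than 98.2% (SD 1.29), while Ncr1 varied more than 56.0%.

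The comparison of untreated with sham rats asks what reflux esophagitis does to the blood. None of the 8 genes passed (limma, adjusted p below 0.05), as against 0.00655% of all genes tested, and none had an unadjusted p below 0.05, against 18.3% of all genes. The 8 genes had a median change of -0.34, with 2 higher and 6 lower, beside a median of -0.19 over all genes. Faslg had the smallest p, at -0.74 ± 0.53 on the log2 scale (change ± SE, adjusted p = 0.392), followed by Gzmm at -0.37 ± 0.56 (adjusted p = 0.684) and Gzma at -0.57 ± 0.88 (adjusted p = 0.694). The other 5 changes ran from -0.35 to 0.24. For no gene were the groups free of overlap, as against 3.05% of all genes. The 95% interval for Gzma, -2.41 to 1.27, holds changes of more than 4-fold in the downward direction. The direction turned on single arrays: without sham array 1 the count was 7 higher and 1 lower with a median of 0.35, and without untreated array 2 it was 5 higher and 3 lower with a median of 0.18. Scaling by the spike-in probes, which moved the median over all genes from -0.19 to 0.37, gave 6 higher and 2 lower. Faslg was at -0.23 without sham array 1 and at -0.39 without untreated array 2. Without untreated array 1, which resembled the sham arrays, the count stayed at 2 higher and 6 lower, with a median of -0.35.

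Omeprazole against untreated asks what acid suppression changes in rats with esophagitis. None of the 8 genes passed, against 4.17% of all genes, and none had an unadjusted p below 0.05, against 15.5% of all genes. The changes had a median of -0.07, with 3 higher and 5 lower, beside 0.10 over all genes. Ncr1 was 1.70-fold higher by mean, a change of 0.76 ± 0.41 with an interval from -0.09 to 1.62 (adjusted p = 0.378), and it was the only member whose groups did not overlap, a property of 7.28% of all genes. Gzmb (-0.69 ± 0.83, adjusted p = 0.696) and Gzmk (-0.44 ± 0.62, adjusted p = 0.745) were next by p, both with overlapping groups. The other 5 genes differed by -0.21 to 0.24. The split depended on single arrays in both directions. Without untreated array 2 it was 1 higher and 7 lower, with a median of -0.47 and Ncr1 at 0.47, and without omeprazole array 3 it was 2 higher and 6 lower (median -0.35). Without untreated array 4 it was 6 higher and 2 lower (median 0.23), and without untreated array 3 or omeprazole array 2 or 4 it was 5 higher and 3 lower (medians 0.13, 0.06 and 0.09).

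STW5 was compared with the untreated group at each dose and over both, and these comparisons share the 4 untreated arrays with each other and with omeprazole. All 8 genes had higher means at each dose under the 75th percentile scaling. At 0.5 ml/kg the changes ran from 0.48 to 1.58 with a median of 0.75, against 0.02 over all genes. None passed, as 0% of all genes did, and none had an unadjusted p below 0.05, beside 905 of all genes. Gzma changed by 1.58 ± 0.88 (interval -0.26 to 3.42, adjusted p = 0.933), Faslg by 0.92 ± 0.53 (adjusted p = 0.954) and Ncr1 by 0.70 ± 0.41 (adjusted p = 0.956). No member was free of overlap here, against 1.91% of all genes. Without STW5 0.5 ml/kg array 2 the median was 0.28 instead of 0.75, with 8 of 8 higher, and Gzma and Faslg were at 0.72 and 0.36. Without untreated array 2 the median was 0.49 with 7 of 8 higher, and Faslg and Ncr1 were at 0.57 and 0.41.

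At 2 ml/kg the changes ran from 0.35 to 1.25 with a median of 0.64, against 0.14 over all genes. None passed, with 0% of all genes passing, and none had an unadjusted p below 0.05, beside 3624 of all genes. Faslg changed by 0.80 ± 0.53 (adjusted p = 0.375), Gzma by 1.25 ± 0.88 (interval -0.59 to 3.09, adjusted p = 0.404) and Gzmm by 0.70 ± 0.56 (adjusted p = 0.466). Faslg was the only member free of overlap, as were 4.01% of all genes, and it was above background on 2 of 4 arrays in each of these groups. Without untreated array 2, 6 of 8 were higher with a median of 0.31, and Gzmm was at 0.04 and Faslg at 0.45. Scaling the arrays by the spike-in probes moved the median over all genes in this comparison from 0.14 to -0.87, and then 1 of 8 members was higher, with a member median of -0.38.

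Over both doses the changes ran from 0.41 for Nkg7 to 1.42 for Gzma, with a median of 0.68 against 0.10 over all genes, of which 60.6% were higher. None passed, as 0% of all genes did, and none had an unadjusted p below 0.05, beside 1455 of all genes. Faslg (0.86 ± 0.46), Gzma (1.42 ± 0.76) and Ncr1 (0.58 ± 0.35) had the smallest p, with adjusted p values of 0.562, 0.562 and 0.603. No member was free of overlap between the 8 STW5 and the 4 untreated arrays, against 0.0786% of all genes. Without untreated array 2, 6 of 8 were higher with a median of 0.40, and Faslg and Ncr1 were at 0.51 and 0.29. General T cell genes moved the same way, with 17 of 18 tested higher and a median of 0.61. Of the NK and CD8 identity genes 22 of 32 were higher with STW5, with a median of 0.24. With omeprazole against untreated, 16 of 18 T cell genes were higher (median 0.77), while the members' median was -0.07. Untreated array 2, at -2.54 for the T cell genes, enters each of these comparisons. The part of either list in the members' difference was not tested.

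The higher and lower STW5 dose, compared within a slide, gave changes from -0.34 to 0.00 with a median of -0.11, against 0.18 over all genes. None passed, as 0% of all genes did, none had an unadjusted p below 0.05, beside 4062 of all genes, and none was free of overlap, against 11% of all genes. By p the first 3 were Ncr1 (-0.24 ± 0.41, adjusted p = 0.728), Gzma (-0.34 ± 0.88, adjusted p = 0.831) and Faslg (-0.12 ± 0.53, adjusted p = 0.903). The interval for Prf1, -1.20 to 1.19, and that for Gzma, -2.18 to 1.5, leave room for a difference between doses in either direction. Without STW5 0.5 ml/kg array 2, 7 of 8 were higher at the higher dose, with a median of 0.41.

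**Figure D2:**
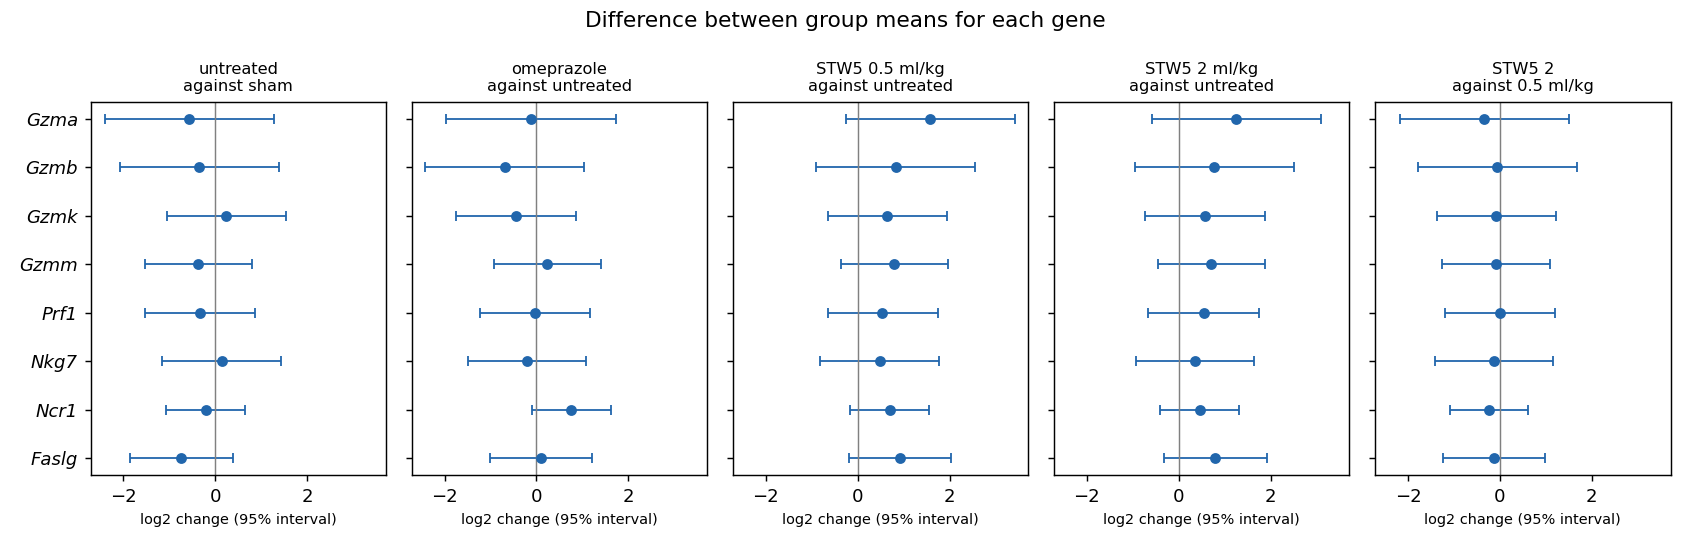
Difference between group means of each gene on the log2 scale (point) with its 95% interval from the limma fit (bar), in 5 comparisons. Every interval includes 0. With this scaling all points lie above 0 for both STW5 doses against untreated (1 of 8 for 2 ml/kg with spike-in scaling), at 0.48 to 1.58 and 0.35 to 1.25, and Gzma has the widest intervals.

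While a median of 20.4% of the sum of squares of the 8 genes lay between groups, the genes moved together from rat to rat, Ncr1 least closely. Sham array 1 and STW5 0.5 ml/kg array 2 held the highest level for 4 genes each (Gzmb, Gzmk, Nkg7 and Ncr1 on the former, Gzma, Gzmm, Prf1 and Faslg on the latter). Averaged over the 8 genes, these rats lay 1.86 and 1.91 above the genes' means on the log2 scale. The third highest array, STW5 2 ml/kg array 1, lay 0.77 above. The lowest were untreated array 2 at -1.32 and sham array 4 at -1.24. Both ends of the scale thus held a sham-operated rat, at 1.86 and -1.24.

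**Figure D3:**
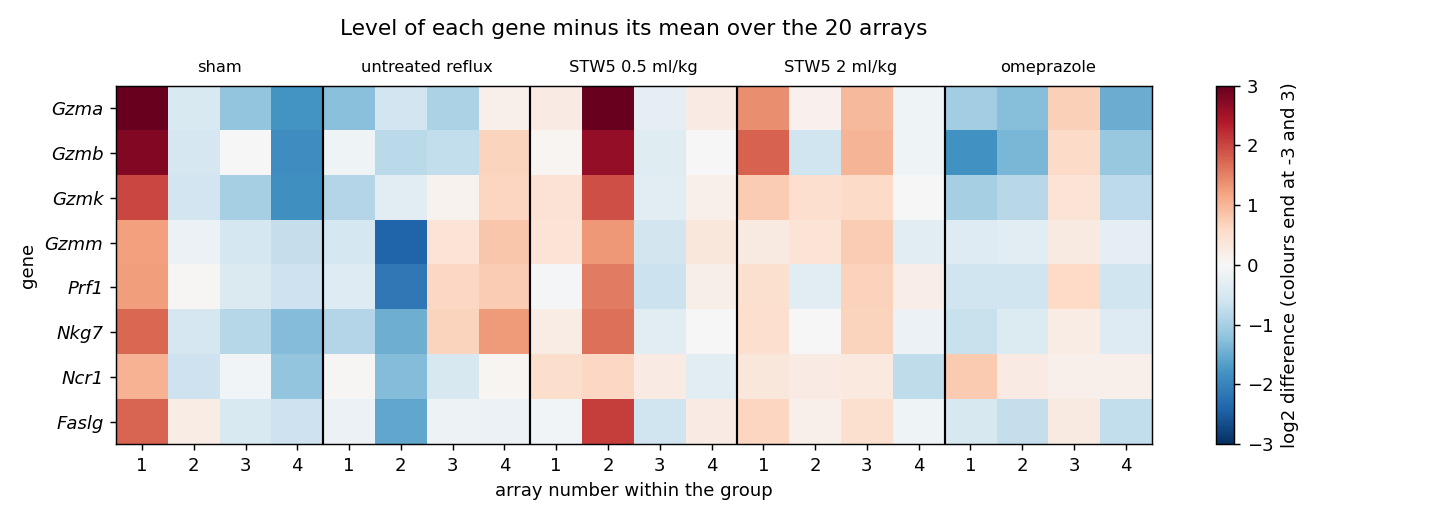
Level of each gene minus its mean over the 20 arrays (log2, red above and blue below the mean, colours end at -3 and 3). Columns are arrays 1 to 4 of each group. Whole columns share a colour: red for sham array 1 and STW5 0.5 ml/kg array 2, while untreated array 2 is blue for Gzmm, Prf1, Nkg7, Ncr1 and Faslg and paler for Gzma and Gzmk.

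The 28 pairs of genes correlated at Pearson r = 0.49 to 0.94 over the 20 arrays, with a median of 0.80 (Spearman rho 0.33 to 0.92, median 0.77). After the group means were subtracted the median was 0.81. These are descriptions, over arrays that share the scaling of their signal. The correlation of the 8 genes' mean with the log2 75th percentile of the arrays was 0.15. Without the 2 highest arrays the median over pairs was 0.62, so part of the correlation rests on these 2 rats. Leaving out untreated array 2 had the opposite effect. The median was 0.86 without that array alone, and 0.73 without it and the 2 highest.

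Within the set, Gzma, Gzmb and Gzmk formed a tight group, with Gzma and Gzmk at 0.94, Gzma and Gzmb at 0.93, and Gzmb and Gzmk at 0.89. Gzmm, Prf1 and Nkg7 formed another, with Gzmm and Prf1 at 0.93, and Nkg7 also followed Gzmk at 0.90. Other pairs across these groups were lower, such as 0.68 for Gzma and Gzmm and 0.74 for Gzmk and Prf1. The split into 2 groups was less sharp without untreated array 2. Pairs across the groups then ran from 0.79 for Gzmb and Gzmm to 0.95 for Gzmk and Nkg7. Among them, Gzma and Gzmm were at 0.85, Gzmk and Prf1 at 0.88, and Gzmk and Gzmm at 0.93. Pairs within the groups ran from 0.89 (Gzmm and Prf1, Gzmb and Gzmk) to 0.96 (Gzmm and Nkg7). The 2 ranges overlapped through pairs with Gzmk. On untreated array 2 Gzmm and Prf1 were at the bottom of their range, at 0.18 and 0.38. Gzma at -0.27 and Gzmk at 0.54 lay above their lowest levels, which were -1.49 and -0.98 on sham array 4. Ncr1 was the loosest, at 0.49 to 0.65 with the others, and was also not well above background on 4 of the 20 arrays. Without sham array 1, STW5 0.5 ml/kg array 2 and untreated array 2 its correlations ran from -0.06 (Prf1) to 0.35 (Gzmk).

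**Figure D4:**
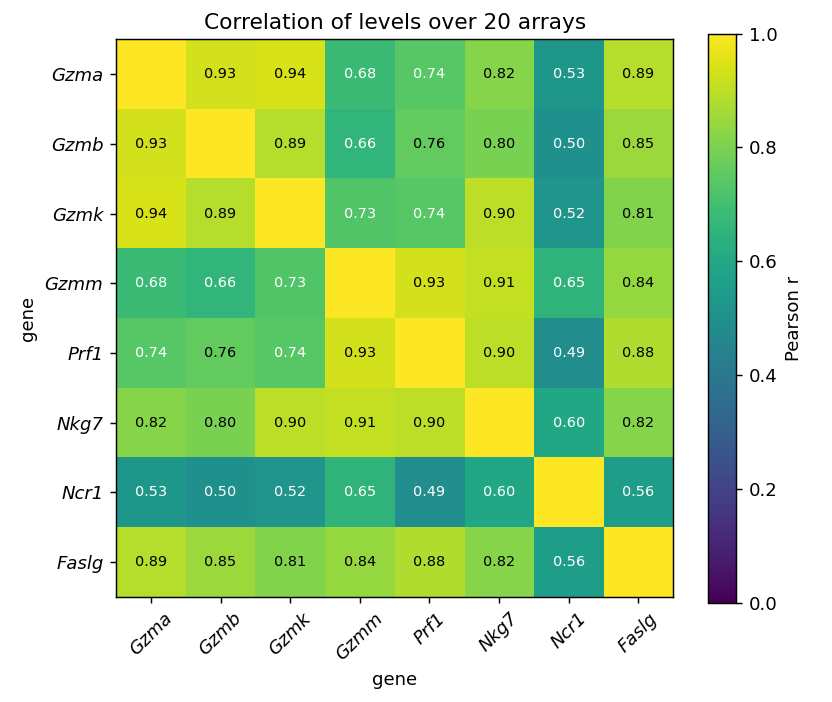
Pearson r between the levels of each pair of genes over 20 arrays. Gzma, Gzmb and Gzmk correlate at 0.89 to 0.94, Gzmm, Prf1 and Nkg7 at 0.90 to 0.93, and Ncr1 at 0.49 to 0.65 with all others.

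Ranked against all other genes tested, the members other than Ncr1 were close to each other. Gzmk was the gene most like Gzma of 15259 and Gzma the one most like Gzmk. Gzmm and Prf1 were likewise each other's nearest gene. Nkg7 had Gzmm, Prf1 and Gzmk as its first 3. Faslg had Gzma and Prf1 as its first 2. Ncr1 was at rank 884 for Prf1 and at ranks 85 (for Nkg7) to 124 (for Gzmb) for the other members. For Ncr1 itself, Gzmm was at rank 7 and Prf1 at rank 111.

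Outside the members, the 3 genes with a symbol that were most like each were also named. Cdhr1, a cadherin-related gene known from photoreceptors, was among them for 4 members. For Gzma they were Cdhr1 (r = 0.89), Gzmc (0.88) and Klrb1a (0.87), an NK receptor. For Gzmk they were Cdhr1 (0.93), Ccl5 (0.91), a chemokine that cytotoxic cells release, and Klrb1a (0.89). For Gzmb they were Gzmc (0.95), Cdhr1 (0.86) and Ccl4 (0.83), another chemokine. Gzmc stands for a single probe here, since of the 3 Gzmc probes that probe was well above background on 17 arrays and the others on 1 and 0.

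Il2rb, the receptor chain shared by interleukin 2 and interleukin 15, was first for Gzmm (0.88), Prf1 (0.90) and Nkg7 (0.89). It was followed by Ly49s6 (0.83) and Gfi1 (0.80) for Gzmm, by Gfi1 (0.87) and Nasp (0.81) for Prf1, and by Cdhr1 (0.88) and Klrb1a (0.88) for Nkg7. Faslg was closest to Ccl4 (0.86), Gzmc (0.83) and Klri1 (0.83), an NK receptor. For Ncr1 no gene came near these values, the first being Cep55, Ly49si2 and Serpinb9, an inhibitor of granzyme B (all 0.66).

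The members' mean was set against lists of blood cell genes, each taken without the members. It rose and fell with the 32 tested genes of NK and CD8 T cell identity, at r = 0.83 (rho 0.88), or 0.82 after group means were subtracted. The NK and CD8 list holds Il2rb, Klrb1a, Ccl4 and Ccl5, named above among the genes most like the members. Its r therefore partly restates those likenesses. Leaving out the 2 arrays farthest from the median of that list, untreated 2 and STW5 0.5 ml/kg 2, gave 0.81. Against the 18 general T cell genes r was 0.20 (rho 0.00), and -0.12 without the 2 farthest arrays. Against the 16 neutrophil genes r was -0.33 (rho -0.26), and 0.07 without the 2 farthest. For the 22 tested genes of the killing machinery, described below, r was 0.29 (rho 0.25). The range of the NK and CD8 list was also narrower, from -0.67 to 0.35 over the 20 arrays, than that of the members, from -1.32 to 1.91. A total of 12 such relations was computed, all as descriptions.

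**Figure D5:**
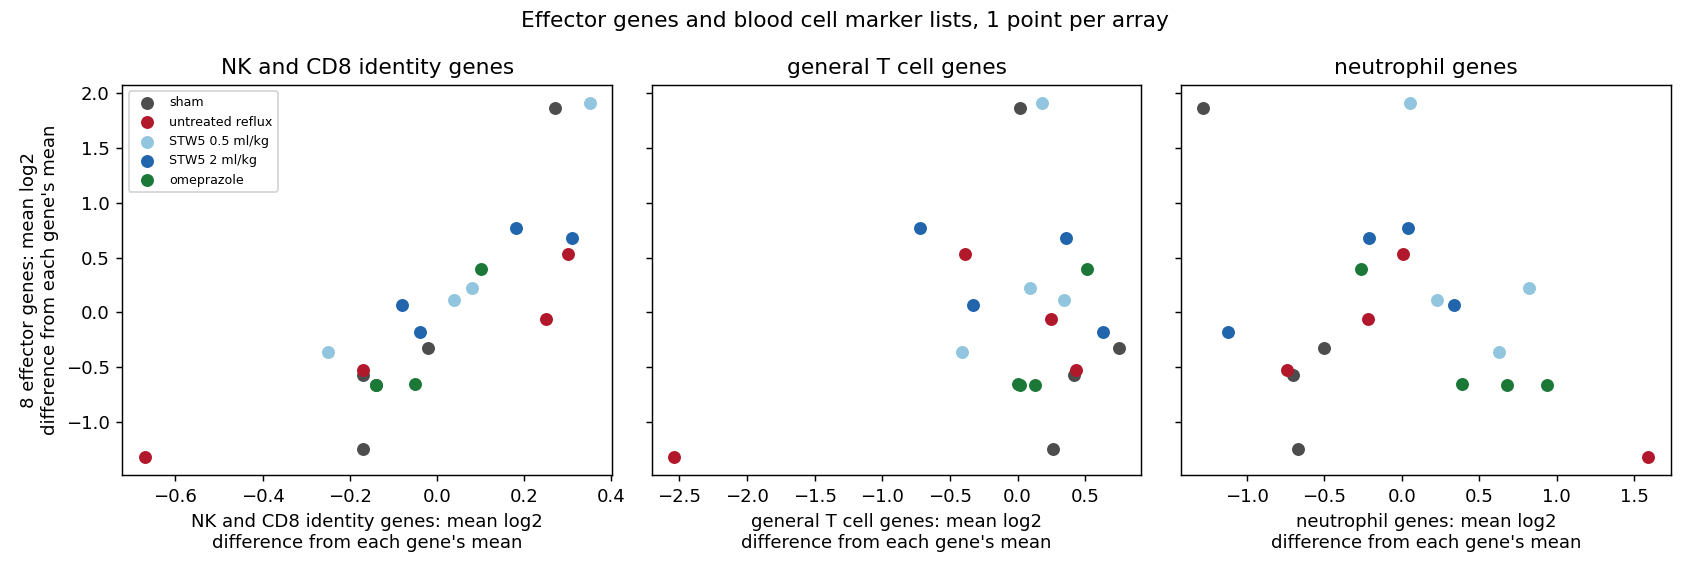
Mean log2 difference of the 8 effector genes from their means over 20 arrays (vertical axis) against the same quantity for lists of blood cell genes without the members (horizontal axis), with 1 point per array coloured by group. The points rise together for NK and CD8 identity genes (r = 0.83) and not for general T cell (0.20) or neutrophil genes (-0.33), and untreated array 2 lies at the far end of each panel.

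Other genes of the killing machinery serve granule loading, release and death receptor signalling. Of 22 tested in the list of 28, none passed in any comparison (limma, adjusted p below 0.05), and the 3 with an unadjusted p below 0.05 in untreated against sham compare with 18.3% of all genes. The most with such a p were 8, for STW5 2 against 0.5 ml/kg, where 26.6% of all genes had one. Against sham, untreated rats had 14 higher and 8 lower, with a median of 0.26 beside -0.19 over all genes. The 3 smallest p values there were those of Ctsc, the protease that activates granzymes (1.13 ± 0.31), Vamp7, a vesicle fusion protein (0.67 ± 0.24), and Lyst, a regulator of lysosome-related granules (0.52 ± 0.25), with adjusted p of 0.243, 0.243 and 0.274. Neutrophil genes moved with them, with 15 of 16 higher in untreated rats and a median of 1.07. Their part in these differences was not tested. With normexp background correction, an alternative, Lyst was at 0, and Ctsc and Vamp7 were at 1 and 0.8.

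Of the NK and CD8 identity genes, 32 of 43 were tested. With esophagitis 15 of them had a higher and 17 a lower mean than after the sham operation; none passed and 12 of 32 had an unadjusted p below 0.05, against 18.3% of all genes. The smallest p values were those of Zeb2, a transcription factor of mature effector cells that monocytes also express (1.85 ± 0.55, adjusted p = 0.243), Cd8a, the CD8 alpha chain (-1.18 ± 0.43, adjusted p = 0.243), and Il21r, the interleukin 21 receptor (-1.37 ± 0.53, adjusted p = 0.247). General T cell genes were lower as well, 17 of 18 with a median of -0.87, and their part was not tested. Without untreated array 2, Cd8a was at -0.59 (adjusted p = 0.251) and Il21r at -0.65 (adjusted p = 0.297). Over all 6 comparisons 1 of the 32 genes passed, in omeprazole against untreated, where 4.17% of all genes did. Cx3cr1, the fractalkine receptor of mature cytotoxic cells and of monocytes, fell by 1.95 ± 0.52 with omeprazole (adjusted p = 0.0345). Its untreated levels were 1.31, 1.5, 3.82 and 3.38, and its omeprazole levels 1.04, 0.34, 0.07 and 0.78, without overlap, as for 7.28% of all genes. Untreated arrays 3 and 4 were high, and leaving out the former gave -1.51 (adjusted p = 0.11) and the latter -1.65 (adjusted p = 0.144). The call was lost under 11 of 18 alternatives, with adjusted p from 0.00763 to 0.175.

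The interferon gamma response list holds receptor chains (Ifngr1, Ifngr2) and kinases (Jak1, Jak2) as well as genes that respond to the cytokine. Ifng itself was not well above background. Of the 25 listed genes 22 were tested, and none passed in any comparison. In untreated against sham 5 had an unadjusted p below 0.05, Ifngr1, Ifngr2 and Jak2 among them, against 18.3% of all genes. In the other comparisons 0 to 2 did. In untreated against sham the mean was higher for 13 and lower for 9 (median 0.09). Icam1, an adhesion molecule (1.13 ± 0.41), Ifngr2, a receptor chain (0.82 ± 0.32), and Jak2, its kinase (0.56 ± 0.24), had the smallest p, with adjusted p of 0.243, 0.247 and 0.261. Of the 9 genes named from these lists for untreated against sham, 8 (all but Lyst) passed when untreated array 1, the array that correlated best with a sham array, was left out, with adjusted p from 0.00336 for Zeb2 to 0.047 for Jak2. The number of genes passing was then 1831 instead of 1, and 0 of the 8 effector genes were among them. Without untreated array 2 none of the 9 genes passed, with adjusted p from 0.201 to 0.297, and Icam1 was at 0.76.

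Promoter sequence was looked at because the members moved together between rats. RefSeq promoters of 9 of the 10 genes, all but Ncr1, were at hand (GRCr8). They include those of Eomes and Ifng, for which no level was tested. The 250 bases before each start were searched on both strands for short cores of binding motifs of factors known in lymphocytes: T-box (GGTGTGA), RUNX (TGTGGTT), ETS (AGGAAGT), STAT (TTCNNNGAA) and AP-1 (TGANTCA). The T-box core was found in 2 of 9, those of Gzmk and Gzmm, and in 3.2% of all 33469 promoters. The RUNX core was in 4 of 9 (Gzma, Gzmb, Gzmm and the untested Eomes) and in 4.6% of all. The ETS core was in 2 of 9 and 7.1%, the STAT core in 2 of 9 and 7.7%, and the AP-1 core in 1 of 9 and 6.3%. The promoters of Gzmk, Gzmm and Gzmb are shown as examples, with every match in capitals. They lie at chr2:46582016-46582265, chr7:10667257-10667506 and chr15:34462470-34462719, all on the minus strand of GRCr8. In Gzmk the T-box core starts 118 bases before the start of transcription. In Gzmm the RUNX core starts 95 and the T-box core 82 bases before it. Gzmb holds an AP-1 core at 151, a RUNX core at 127 and a STAT core at 56 bases before it. A match describes the sequence only.
Gzmk: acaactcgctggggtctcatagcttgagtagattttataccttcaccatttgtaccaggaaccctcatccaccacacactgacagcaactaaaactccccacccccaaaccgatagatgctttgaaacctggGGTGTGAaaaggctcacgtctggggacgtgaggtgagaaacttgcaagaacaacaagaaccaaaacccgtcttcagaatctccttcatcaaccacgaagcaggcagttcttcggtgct
Gzmm: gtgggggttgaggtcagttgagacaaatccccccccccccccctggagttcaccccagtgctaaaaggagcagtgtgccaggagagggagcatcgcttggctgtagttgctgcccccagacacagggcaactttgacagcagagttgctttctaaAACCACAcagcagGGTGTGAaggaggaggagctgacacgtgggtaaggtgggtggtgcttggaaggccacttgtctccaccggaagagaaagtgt
Gzmb: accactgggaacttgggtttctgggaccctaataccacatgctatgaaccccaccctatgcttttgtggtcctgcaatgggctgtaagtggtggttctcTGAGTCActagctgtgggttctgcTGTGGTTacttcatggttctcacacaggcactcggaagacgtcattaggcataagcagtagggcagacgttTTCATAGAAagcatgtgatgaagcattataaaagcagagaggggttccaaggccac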

How the data were processed

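Per the file headers, the deposited scanner files hold spot intensity values from Agilent Feature Extraction 10.7.3.1, background-subtracted by the authors' software and not normalized between arrays. The authors' deposited table gives every spot as a ratio to the median non-control spot of its array, as found by comparison with the scanner files. Control spots and outlier spots were left out, spots of a probe were averaged, and levels were expressed as log2 relative to each array's 75th percentile, which lay between 71.3 and 308. A probe was kept if at least 4 of 20 arrays had it well above background, with the brightest probe per gene (15260 genes, 10634 with a current symbol). A model with 5 group means was fitted with limma 3.58.1 in R 4.3.3 (15 residual and 4.23 prior degrees of freedom). Tests were two-sided with Benjamini-Hochberg adjustment over all genes, and adjusted p below 0.05 passed.

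In each comparison the 3 members with the smallest p were named where fewer than 3 had an unadjusted p below 0.05, and from each of 3 gene lists (killing machinery, NK and CD8 identity, interferon gamma response) the 3 smallest in untreated against sham plus any that passed. The nearest genes of a member exclude the other members and names that are only locus numbers. The members and lists were chosen with earlier results of these data known. On simulated data for untreated against sham, over 15260 genes, the fit recovered 28% of genes changed by 1 on the log2 scale. It recovered 68% at 2, 94% at 3 and 100% at 4, and it also called 10 unchanged genes. In the measured data of this comparison the median SE over all genes was 0.35. The SEs of the tested effector genes were larger, from 0.41 for Ncr1 to 0.88 for Gzma. The percentages therefore do not give the recovery of the effector genes, which was not tested.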

Additional observations from a re-analysis of the deposited data

Results flagged for a closer look

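Among 40 sets of 4 arrays checked (8 genes in 5 groups), 8 held an array far from the other 3, where chance flags about 1 in 20. On STW5 0.5 ml/kg array 2, Gzma was at 3.80, with the other arrays at 0.01 to 0.55, and Gzmb was at 1.02, with the others at -1.99 to -1.57. Omeprazole array 3 stood above its group for Gzmk at 1.27 (others -0.14 to 0.08), for Gzmm at 2.85 (others 2.20 to 2.30) and for Prf1 at 3.1 (others 1.91 to 1.92). Ncr1 was at -1.96 on omeprazole array 1 (others -2.59 to -2.50) and at -3.50, not well above background, on STW5 2 ml/kg array 4 (others -2.51 to -2.41). Faslg was at -4.34, not well above background, on untreated array 2 (others -2.96 to -2.93). Since the genes move together, these 8 are not independent of each other.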

How the results depend on the processing

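None of the 8 genes passed in any comparison under any alternative run, except that spike-in scaling gave 1 for STW5 2 against 0.5 ml/kg: Ncr1 at -1.51 (adjusted p = 0.0187), where it also moved the median of all genes to -1.08 from 0.18. Arrays of different groups share only a replicate number: 19 of 40 same-number pairs had deviations from the group means correlating above 0.1 (range -0.436 to 0.589). The replicate block left the members' count at 0 in all 6 comparisons, and all genes passing were then 0 for untreated against sham, 731 for omeprazole, 1, 0 and 0 for STW5 0.5 ml/kg, 2 ml/kg and both doses, and 534 for 2 against 0.5 ml/kg. Exchanging the STW5 doses exchanges their values. Of the members named by p, signs reversed as follows. With normexp background correction Ncr1 and Faslg were at 0.37 and 0.29 for 2 against 0.5 ml/kg. With spike-in scaling Gzmm was at 0.19 for untreated against sham, and for 2 ml/kg against untreated Gzmm was at -0.31 and Faslg at -0.22. Leaving out 1 array gave ranges of -1.13 to 0.49 for Gzma and -0.79 to 0.29 for Gzmm in untreated against sham. For 2 against 0.5 ml/kg the ranges were -0.74 to 0.52 for Gzma, -0.44 to 0.02 for Ncr1 and -0.46 to 0.43 for Faslg. The upper ends were reached without STW5 0.5 ml/kg array 2 for Gzma and Faslg, without 2 ml/kg array 4 for Ncr1, without sham array 1 for Gzma against sham and without untreated array 2 for Gzmm. The cause was not tested. Numbers of all genes passing ranged over the alternatives from 0 to 1831 for untreated against sham, 390 to 1166 for omeprazole, 0 to 5, 0 to 3694 and 0 to 133 for STW5 0.5 ml/kg, 2 ml/kg and both doses, and 0 to 7747 for 2 against 0.5 ml/kg. The other Gzmb probe, tried after seeing the data, gave changes of -0.90 to 0.62, none passing. Signal over background limits Ncr1, Faslg and Gzmb, and 4 rats per group limit all genes.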
